A study of Mus musculus with 4 samples.

Results

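The 10 genes described here encode the actin monomers and filaments of T cells and proteins that bind them. They were listed by name from the 31053 genes of the matrices, with earlier results of these data known, and all 10 had UMIs in every library. They are the cytoplasmic actins Actb and Actg1, the monomer-binding proteins Pfn1, Tmsb4x and Tmsb10, the filament-severing protein Cfl1, the filament-binding proteins Coro1a, Lsp1 and Actn1, and the intermediate filament protein Vim. Single-cell RNA sequencing of CD4 and CD8 T cells, sorted from the meninges and the choroid plexus (the membranes around the brain, and the tissue in its ventricles that makes cerebrospinal fluid), compared young mice of 10 weeks with aged mice of 18 months. All mice were female C57BL/6 animals, the labels name no genetic change or treatment, and each of the 4 libraries pooled 5 mice. With 1 library per condition there was no replicate check, no p-value was calculated and variation between mice is unknown, so each age difference compares 2 pooled libraries.

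Actin cycles between single subunits and filaments. Profilin loads subunits for growth at filament ends, thymosins hold them in reserve and cofilin cuts old filaments, while alpha-actinin crosslinks filaments and coronin binds them near the Arp2/3 complex that starts branches. In T cells this turnover drives migration and the contact with antigen-presenting cells, and vimentin forms a separate cage of filaments that gives circulating lymphocytes their stiffness.

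Levels are unique molecular identifiers (UMIs) of a gene scaled to counts per 1e6 UMIs of all genes (CPM), summed over the cells of a library, with the 95% exact Poisson interval in brackets. A UMI marks 1 transcript end, so CPM values of different genes can be set side by side without division by length. These intervals cover counting error only and leave out the spread between cells and between mice. They narrow as UMIs rise, so those of abundant genes can fail to overlap at small differences. The share of all genes whose intervals did not overlap is not given here, so such counts have no background beside them. T cells were put in the CD4 gate by a UMI of Cd4 in the absence of Cd8a and Cd8b1, in the CD8 gate by a UMI of Cd8a or Cd8b1 in the absence of Cd4, and in the gate called neither where all 3 genes had no UMI. From young mice, the CD4 gate held 254 cells of the meninges and 160 of the choroid plexus, the CD8 gate 254 and 160, and neither 481 and 269. For aged mice the same numbers were 362 and 230 with Cd4, 281 and 473 with a Cd8 gene, and 735 and 358 in neither. Since the mice's cells were sorted as CD4 or CD8 T cells, those in neither may still express Cd4 or a Cd8 gene. Neither is therefore a gate by counted UMIs and not a separate kind of T cell. A difference passed the rule of size where the higher group had at least 20 UMIs and the log2 ratio of CPM + 10 was at least 1 in size. This is a rule of size and not a test.

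The libraries held 2295950 to 4262917 UMIs, and the medians ran from 2079 to 3645 UMIs per cell over the 12 groups of library and gate. T cell markers (5 of 5 detected) summed to 3640.5 to 4379 CPM in all 12 groups, while fibroblast and mural cell markers did not exceed 1.15 and 0.988 CPM. The summed level of naïve-like markers was 808 to 1437 CPM in young groups and 231 to 338 CPM in aged groups, and memory or effector markers were at 392 to 775 CPM in young and 924 to 1371 CPM in aged groups. The groups of the 2 ages did not overlap in either list. Immediate early genes, which respond to cell handling among other stimuli, summed to 2631 to 6517 CPM in the meninges and 604 to 1450.3 CPM in the choroid plexus. Ribosomal protein genes took 33.7 to 39.6% of UMIs in young groups and 28.5 to 34.4% in aged groups, which moves the CPM of all other genes. Pairs of libraries shared 0 to 3 cell barcodes.

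The regions around the start sites of 3 members are shown because these 3 varied most over the groups. Each is the RefSeq window of 250 bases before to 50 bases after a start site in GRCm38.p6, where 8 of the 10 members had an entry. Actb and Lsp1 had no entry, so their windows were not searched. Capitals mark the CArG box, the site bound by serum response factor, and the sequence TATAAA, both searched on both strands.
Actn1, chr12:80260314-80260613, minus strand: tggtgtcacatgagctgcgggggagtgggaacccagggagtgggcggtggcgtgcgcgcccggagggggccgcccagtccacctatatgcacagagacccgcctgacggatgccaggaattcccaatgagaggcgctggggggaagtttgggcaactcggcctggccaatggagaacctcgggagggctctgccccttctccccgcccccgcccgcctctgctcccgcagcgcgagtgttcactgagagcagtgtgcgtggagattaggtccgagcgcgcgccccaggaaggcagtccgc
Vim, chr2:13574061-13574360, plus strand: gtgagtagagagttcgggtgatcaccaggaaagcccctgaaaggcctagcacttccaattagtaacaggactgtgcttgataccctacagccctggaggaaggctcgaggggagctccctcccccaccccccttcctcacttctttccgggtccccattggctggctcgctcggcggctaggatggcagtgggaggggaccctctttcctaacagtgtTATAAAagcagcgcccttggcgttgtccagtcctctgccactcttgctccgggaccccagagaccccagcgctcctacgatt
Actg1, chr11:120348446-120348745, minus strand: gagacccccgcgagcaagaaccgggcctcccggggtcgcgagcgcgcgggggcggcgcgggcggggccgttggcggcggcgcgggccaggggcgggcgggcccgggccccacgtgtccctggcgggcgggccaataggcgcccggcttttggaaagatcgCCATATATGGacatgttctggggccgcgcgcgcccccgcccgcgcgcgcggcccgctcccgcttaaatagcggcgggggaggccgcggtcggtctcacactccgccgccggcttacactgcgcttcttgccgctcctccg
The window of Actg1 held a CArG box that began at -90 from the start site, and none of the other 7 matched members had one in its windows. CArG boxes were present in 1.63% of the 32851 windows of all genes. The window of Vim held TATAAA at -32, a sequence present in 13.6% of all windows. Neither sequence was in the Actn1 window. These are matches of letters, not measured sites.

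Together the members took 3.58 to 4.36% of the UMIs of a group. By mean CPM over the 12 groups, Tmsb10 was the 2nd and Tmsb4x the 7th most abundant of all 31053 genes. Actb was 26th, Pfn1 60th, Actg1 74th, Cfl1 106th, Coro1a 112th, Vim 159th and Lsp1 301st. Actn1 was far below them, at rank 1698 with a mean of 73.2 CPM. The members' order by variation was another. The highest group stood 15.3-fold above the lowest for Actn1, 3.56-fold for Vim, 2.09-fold for Actg1 and 1.81-fold for Actb, and 1.22-fold to 1.61-fold for the other 6.

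**Figure D1:**
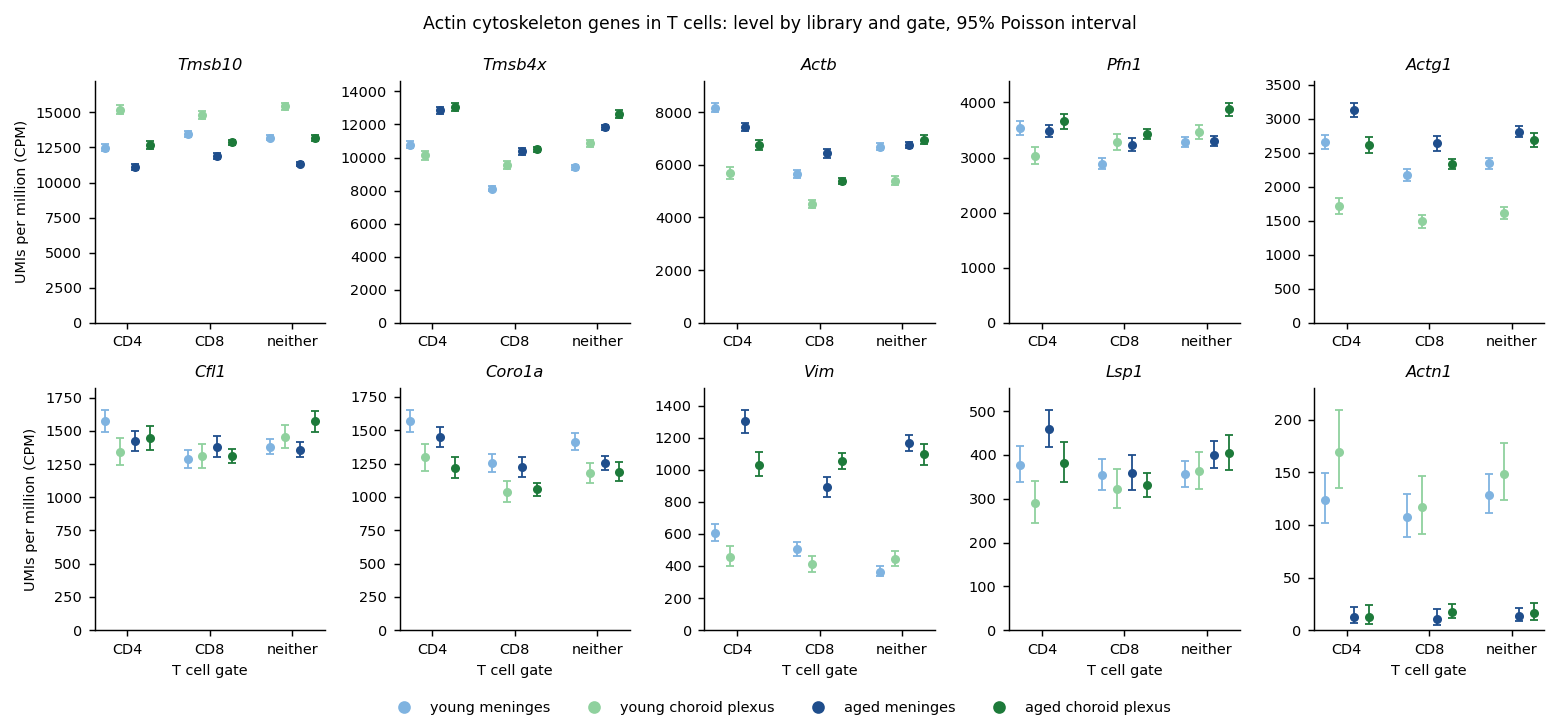
Level of each of the 10 genes in CPM (linear axis from 0, a different range in each panel) for the CD4, CD8 and neither gates in the 4 libraries. Points are CPM of summed UMIs and bars 95% exact Poisson intervals. For Actn1 the young points lie between 108 and 169 CPM and the aged points between 11.05 and 17.3 CPM, and for Vim all aged points lie above all young points.

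Actn1 encodes alpha-actinin 1, which ties actin filaments into bundles and links them to sites of adhesion. It lies on chromosome 12 (GRCm38, 80167547 to 80260371, minus strand). CD4 T cells had Actn1 at 124 CPM (102 to 149.6) in young meninges and 12.8 CPM (6.84 to 22.0) in aged meninges, from 110 and 13 UMIs. In the choroid plexus, the CD4 levels were 169 CPM (135 to 209) in the young and 12.5 CPM (5.70 to 23.7) in the aged library, from 84 and 9 UMIs. The young level was thus 9.67-fold (5.43 to 18.7) the aged level in the meninges and 13.6-fold (6.81 to 30.7) in the choroid plexus.

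CD8 T cells had Actn1 at 108 CPM (89.0 to 129.6) in young meninges and 11.05 CPM (5.30 to 20.3) in aged meninges. The choroid plexus libraries had 117 CPM (91.6 to 146) when young and 17.3 CPM (11.7 to 24.7) when aged. The young level was 9.76-fold (5.12 to 20.9) the aged level in the meninges and 6.75-fold (4.36 to 10.7) in the choroid plexus. The neither gate had 129 and 149 CPM in the young and 13.9 and 16.0 CPM in the aged libraries, so that the young level was 9.30-fold (6.07 to 14.9) and 9.28-fold (5.48 to 16.8) the aged level. Ordered by level, the 6 young groups came first and the 6 aged groups last, and the intervals of neighbours within each age overlapped. Actn1 was the only member below the rule's limit, with log2 ratios of aged over young of -2.21 to -2.99 in all 6 comparisons. With a gate of 2 UMIs, the ratio in choroid plexus CD4 T cells was -2.52 but Actn1 had too few UMIs left to pass the rule there. Among all genes compared, 1.86% (CD4), 1.83% (CD8) and 1.42% (neither) were lower by this rule in the aged meninges, and 1.92%, 0.872% and 1.83% in the aged choroid plexus, against 1 of the 10 members in each.

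The closest relative measured, Actn4, served as a reference inside each library that does not depend on scaling. Actn1 made up 63.8 to 69.4% of the UMIs of Actn1 and Actn4 together in the 6 young groups and 13.5 to 21.3% in the 6 aged groups. For CD4 T cells the share was 65.5% (exact Clopper-Pearson 95% interval 57.8 to 72.6) in young and 15.5% (8.51 to 25.01) in aged meninges. Actn4 itself had log2 ratios of aged over young of -0.26 to 0.40. The naïve-like and memory or effector marker levels given above also separated the ages, and Actn1 levels within classes of cells by Ccr7 follow further on.

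Vim encodes vimentin, the main intermediate filament protein of lymphocytes. It lies on chromosome 2 (13573927 to 13582826, plus strand). Vim of CD4 T cells was at 608 CPM (558 to 662) in young meninges and 1301 CPM (1231 to 1373) in aged meninges. The choroid plexus had 459 CPM (401 to 523) in young and 1031 CPM (958 to 1107) in aged CD4 T cells. The aged level was 2.14-fold (1.93 to 2.37) and 2.25-fold (1.93 to 2.62) the young level.

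Vim of CD8 T cells was at 507 CPM (465 to 552) in young meninges and 893 CPM (832 to 956) in aged meninges, 1.76-fold (1.58 to 1.97) higher. In choroid plexus CD8 T cells the levels were 411 CPM (363 to 464) and 1053 CPM (1006 to 1103), 2.56-fold (2.25 to 2.93) higher in the aged library. The neither gate of the meninges had 365 CPM (335 to 397) when young against 1164 CPM (1114 to 1216) when aged, and that of the choroid plexus 445 against 1096 CPM. All 6 aged groups lay above all 6 young groups. The log2 ratios of aged over young were 1.08, 0.80 and 1.65 in CD4, CD8 and neither cells of the meninges. For the choroid plexus they were 1.15, 1.34 and 1.28. Meningeal CD8 T cells did not pass the rule of size and the other 5 comparisons did. Of all genes, 4.23%, 3.2% and 3.44% were higher by this rule in aged meninges (CD4, CD8, neither) and 7.27%, 2.46% and 4.62% in aged choroid plexus, against 1 of the 10 members in each except meningeal CD8 T cells, where it was 0. In meningeal CD4 T cells the log2 ratio of Vim was 0.98 when ribosomal protein, mitochondrial and receptor genes were left out of the scaling and 0.50 when the gate needed 2 UMIs, both short of the rule.

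Markers of other cell types were below those of T cells but not absent. B cell markers summed to 65.2 to 263 CPM, from at least 2 of 4 genes, with Cd79a and Ms4a1 both at 0 in 5 of the 12 groups. A B cell marker was counted in 41.9 to 51.2% of the cells of young groups and 14.6 to 36.5% of those of aged groups. Endothelial markers summed to 13.3 to 74.5 CPM and red cell markers to 0 to 483 CPM. The endothelial sum came from Pecam1 alone, except in CD4 T cells of the aged choroid plexus, where Kdr was counted too. Cldn5 and Cdh5 were at 0 in all 12 groups, so this sum does not show endothelial cells. An endothelial marker was counted in 6.25 to 20.6% of the cells of young groups and 3.40 to 7.83% of those of aged groups. Macrophage markers summed to 0 to 27.7 CPM except in CD4 T cells of the aged choroid plexus, with 197 CPM. After leaving out every cell with a UMI of a B cell, macrophage, fibroblast, mural, endothelial, choroid plexus epithelium or red cell marker, the log2 ratio of Vim was 1.14 in these cells and 0.70 to 1.40 over the 6 comparisons. This left 110 of 254 CD4 T cells of the young meninges, 66 of 160 of the young choroid plexus, 196 of 362 of the aged meninges and 132 of 230 of the aged choroid plexus. A larger part of the young than of the aged CD4 T cells was thus left out. For Actn1 the range was then -2.89 to -2.50. Choroid plexus epithelium markers stood at 162 CPM in CD8 T cells of the young choroid plexus and at 0 to 4.03 CPM elsewhere. Gamma-delta T cell markers were at 91.7 and 181 CPM in CD8 T cells of the aged meninges and choroid plexus and at 5.93 to 44.1 CPM elsewhere. Without the cells that had a UMI of a gamma-delta or natural killer marker, the log2 ratios were 0.96 to 1.62 for Vim and -2.98 to -2.29 for Actn1.

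**Figure D2:**
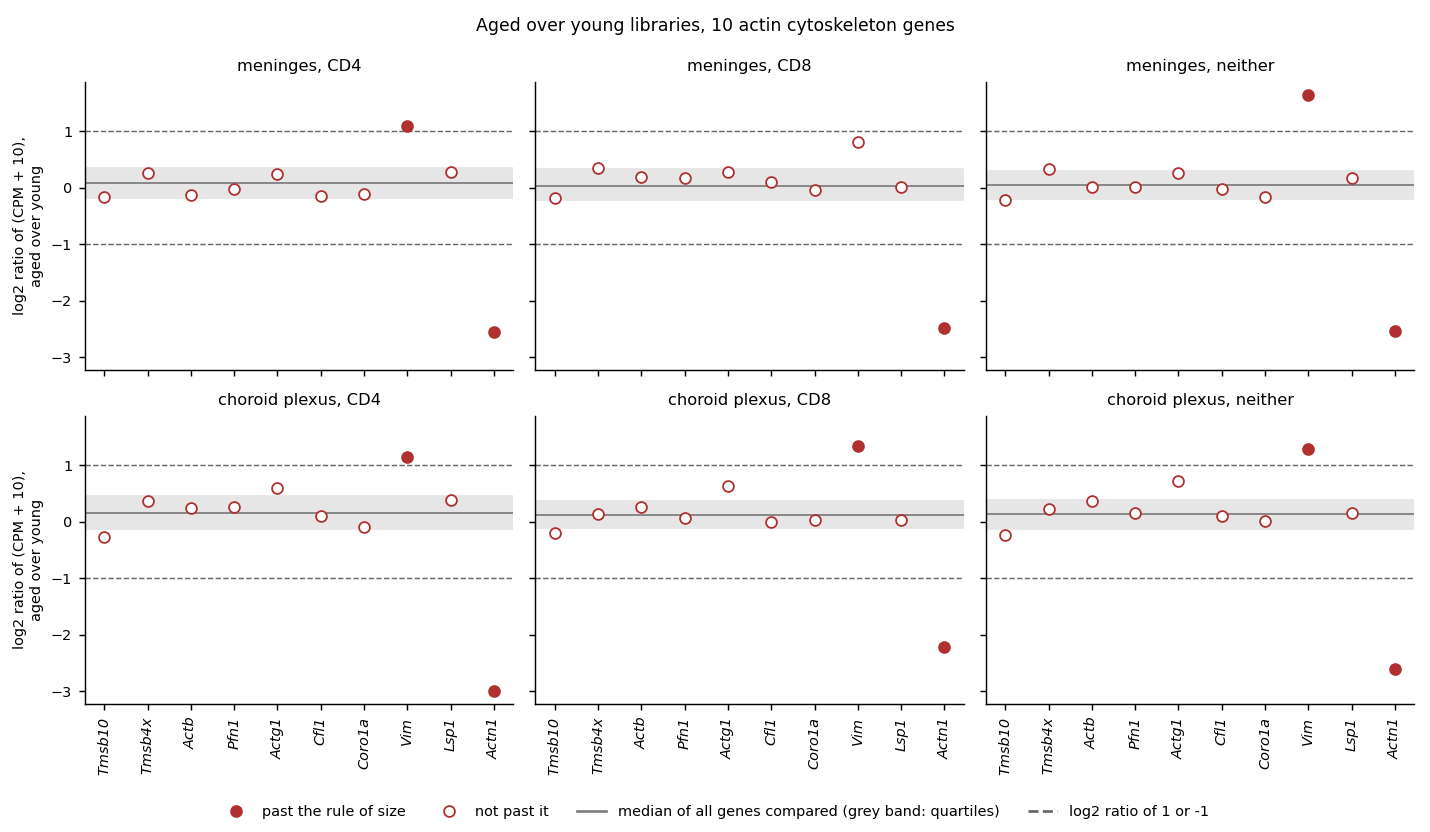
Log2 ratio of (CPM + 10), aged over young, for the 10 genes in each tissue and gate, ordered by mean level. Filled points pass the rule of size, dashed lines mark a log2 ratio of 1 and -1, and the grey line and band give the median and quartiles of all genes compared. Actn1 lies at -2.21 to -2.99 in every panel, and Vim is above 1 in all panels but meningeal CD8.

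The 8 other members had log2 age ratios between -0.26 and 0.73, short of the rule in all comparisons. The median of all genes compared was 0.04 to 0.08 in the meninges and 0.12 to 0.16 in the choroid plexus, and these values are to be read against it. Actg1, on chromosome 11 (120345690 to 120348542, minus strand), encodes gamma-actin, and Actb, on chromosome 5 (142903115 to 142906754, minus strand), beta-actin. The coding sequences of the pair are alike but not identical, so some reads could be split between them, although the 5′ ends that were counted differ more.

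Actg1 was higher in the aged library in 6 of 6 comparisons, with intervals that did not overlap. The CD4 level was 2657 CPM (2551 to 2767) in young meninges and 3129 CPM (3021 to 3239.7) in aged meninges. For the choroid plexus it was 1713 CPM (1599.8 to 1832) when young and 2614 CPM (2497 to 2734) when aged. The CD8 gate of the meninges had 2177 and 2637 CPM and that of the choroid plexus 1494 and 2338 CPM. The aged level was 1.18-fold to 1.21-fold the young level in the meninges and 1.53-fold to 1.66-fold in the choroid plexus. The 3 young choroid plexus groups, at 1494 to 1713 CPM, were the lowest of the 12. In meningeal CD4 T cells the sign turned, to -0.14, when the gate needed 2 UMIs, which left 71 young and 89 aged cells.

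Actb had no common direction with age in the meninges. It was at 8174 CPM (7987 to 8364) in CD4 T cells of young meninges and 7433 CPM (7266 to 7603) in those of aged meninges, a log2 ratio of -0.14. Meningeal CD8 T cells had 5649 and 6436 CPM, a ratio of 0.19 (levels inside classes of these cells by Ccr7 are given further on), and the neither gate 6694 and 6741 CPM. In the choroid plexus Actb was higher in the aged library in all 3 gates, at 5685 against 6743 CPM in CD4, 4509 against 5389 CPM in CD8 and 5395 against 6951 CPM in neither cells. Inside classes of these CD4 T cells by Ccr7, given further on, the young and aged intervals overlapped. The share of Actb among the UMIs of both actins was lower in the aged library in each of the 6 comparisons, at 72.2 to 76.9% in young and 69.7 to 72.2% in aged groups. In meningeal CD8 T cells the intervals of this share overlapped, at 72.2% (71.2 to 73.1) when young and 70.9% (69.9 to 71.9) when aged.

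Tmsb4x and Tmsb10 encode the short peptides thymosin beta 4 and beta 10, which hold actin subunits. The pair differed with age in opposite directions in all 6 comparisons, with intervals that did not overlap. In CD4 T cells of the meninges, Tmsb4x was at 10767 CPM in the young and 12846 CPM in the aged library, and Tmsb10 at 12478 and 11128 CPM. In CD4 T cells of the choroid plexus, Tmsb4x was at 10131 and 13061 CPM and Tmsb10 at 15202 and 12671 CPM. Log2 ratios of aged over young were 0.14 to 0.37 for Tmsb4x and -0.26 to -0.17 for Tmsb10. Both directions were kept in all 11 settings of the processing, which include scaling without ribosomal protein genes and centring on the median ratio. Under each of these scalings the ratio of Tmsb4x in choroid plexus CD8 T cells was only 0.03. Both directions also stood inside classes of CD4 T cells by Ccr7, explained further on, but not all intervals were apart. Tmsb4x of meningeal CD4 T cells without Ccr7 was at 12921 CPM (12564 to 13285) when young and 13121 CPM (12887 to 13359) when aged. Tmsb10 of choroid plexus CD4 T cells with Ccr7 was at 15202 CPM (14777 to 15637) and 14575 CPM (13814 to 15367). For CD8 T cells the age ratios of the thymosins inside these classes are not given here, so no direction is stated for them. Young choroid plexus CD8 T cells without Ccr7 had Tmsb4x at 10852 CPM (10496 to 11216). All aged cells of that gate and tissue, with and without Ccr7 together, had 10495 CPM (10343 to 10648). These are unlike sets of cells, a class against a whole gate, so the pair gives no age direction.

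The share of Tmsb10 among the UMIs of both thymosins needs no scaling. It was 53.7% (53.0 to 54.4) in young and 46.4% (45.8 to 47.0) in aged CD4 T cells of the meninges. The choroid plexus had 60.0% (59.1 to 60.9) when young and 49.2% (48.5 to 49.97) when aged. The CD8 share was 62.4% in young and 53.4% in aged meninges and 60.8% and 55.1% in young and aged choroid plexus. The neither gate had 58.4 and 58.7% in the young and 48.9 and 51.1% in the aged libraries. The aged share was the lower in each comparison.

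**Figure D3:**
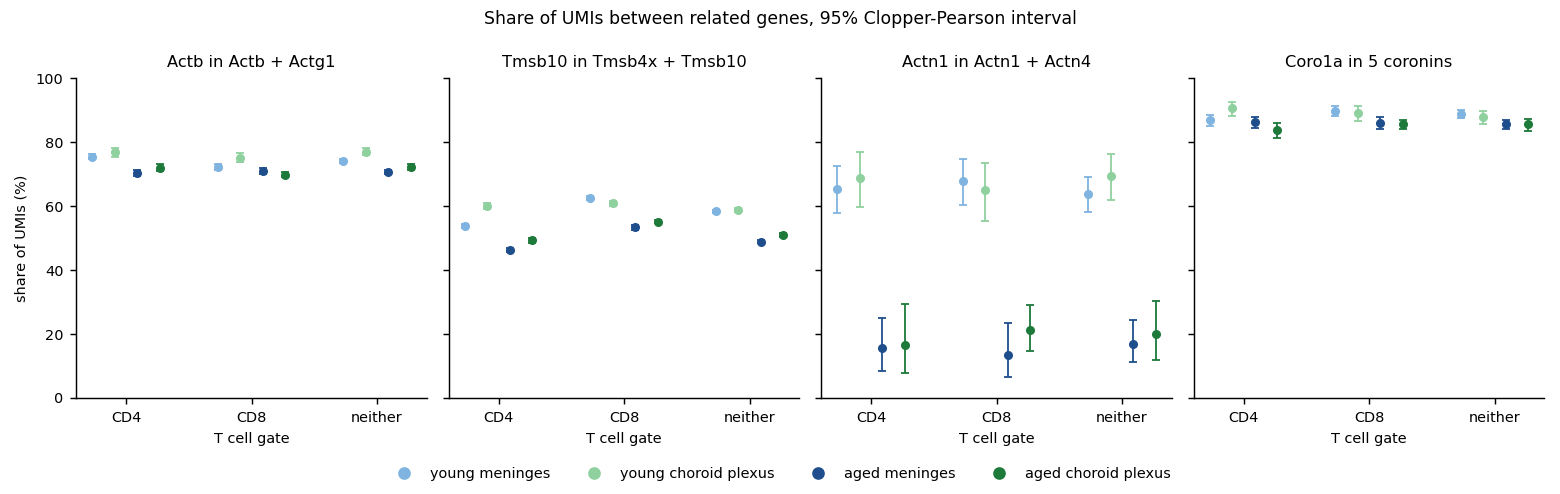
Share of UMIs (%, axis from 0 to 100) of Actb among both actins, Tmsb10 among both thymosins, Actn1 among 2 alpha-actinins and Coro1a among 5 coronins, by gate and library, with 95% Clopper-Pearson intervals. The Actn1 share lies at 63.8 to 69.4% in young and 13.5 to 21.3% in aged groups.

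Pfn1 (profilin 1), Cfl1 (cofilin 1), Coro1a (coronin 1A, the coronin of blood cells) and Lsp1 (a leukocyte protein that binds F-actin) had log2 age ratios of -0.17 to 0.38. Pfn1 was at 2885 CPM in CD8 T cells of young meninges, its lowest group, and at 3874 CPM in neither cells of aged choroid plexus, its highest. Cfl1 ran from 1286 to 1573 CPM, and its young and aged intervals overlapped in all 6 comparisons. Coro1a ran from 1039 to 1568 CPM and Lsp1 from 289.9 to 459 CPM. Aged and young intervals of Lsp1 overlapped in all 6 comparisons, and those of Coro1a in 5 of 6. Those of Pfn1 were apart in 3 of 6 comparisons, with the aged level higher, by up to log2 0.27 in choroid plexus CD4 T cells. The signs of the age ratios of Pfn1, Cfl1, Coro1a and Lsp1 turned in 1 or more comparisons when ribosomal protein genes were left out of the scaling, so no common direction is given for them. The sign of Actb in the neither gate of the meninges turned as well. Coro1a held 83.7 to 90.6% of the UMIs of 5 coronins.

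No member passed the rule of size between tissues (9 had enough UMIs in aged CD4 T cells and 10 elsewhere), and the median of all genes was -0.10 to 0.04. Of all genes, 3.75% (CD4), 2.72% (CD8) and 2.07% (neither) did so in either direction between the young choroid plexus and meninges, and 2.26%, 1.38% and 1.49% between the aged ones. Tmsb10 was higher in the choroid plexus in 6 of 6 comparisons with intervals apart, by log2 0.11 to 0.28. Actg1 and Coro1a were lower in the choroid plexus in 6 of 6 comparisons, with intervals apart in 5, and Actb was lower with intervals apart in 5 of 6. These signs were kept under both other scalings. For the counts of intervals apart, no share of all genes is given here. Over the tissue comparisons 4 to 8 members had intervals apart, and with this many UMIs small ratios suffice for that. The tissue ratio of Actg1 was -0.63, -0.54 and -0.53 in young CD4, CD8 and neither cells and -0.26, -0.17 and -0.07 in aged ones, and that of Actb -0.52, -0.32 and -0.31 in the young and -0.14, -0.26 and 0.04 in the aged gates. Immediate early genes and red cell markers also stood higher in the meninges, the latter at 13.2 to 483 CPM against 0 to 4.03 CPM, and their part in these differences was not tested.

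No member passed the rule between CD8 and CD4 T cells of the same library (9 had enough UMIs in aged meninges and 10 elsewhere), where 2.81% of all genes did in young and 4.51% in aged meninges, and 3.54% and 3.35% in the choroid plexus of the young and the aged. Actb, Actg1, Tmsb4x and Coro1a were lower in CD8 than in CD4 T cells in 4 of 4 libraries, with intervals apart in each. The share of all genes with intervals apart is not given beside them. With this many UMIs intervals were apart at small ratios too, as for Tmsb4x in young choroid plexus (log2 -0.09). The ratio of Actb was -0.53 in young meninges, -0.33 in young choroid plexus, -0.21 in aged meninges and -0.32 in aged choroid plexus. The ratio of Coro1a was -0.20 to -0.32 over the libraries. The median of all genes was itself -0.16 to -0.06, and without ribosomal protein genes in the scaling the ratios of Actb were -0.39 to -0.08 and those of Tmsb4x -0.26 to -0.03. Under that scaling Actg1 was at -0.14 to -0.08 and Coro1a at -0.27 to -0.12. Centred on the median of all genes, the ratios in aged meninges were -0.05 for Actb, -0.09 for Actg1, -0.09 for Coro1a and -0.15 for Tmsb4x. Ribosomal protein genes took 2.22 to 5.87 percentage points more of the UMIs of CD8 than of CD4 T cells. Vim was lower in CD8 T cells of aged meninges by 0.54 and differed by 0.03 in aged choroid plexus.

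To see whether the age differences also stood inside classes of cells, CD4 and CD8 T cells were split by the presence of a UMI of Ccr7, the chemokine receptor of naïve and central memory T cells that leads to lymph nodes. Cells with Ccr7 numbered 146 of 254 CD4 T cells in young and 35 of 362 in aged meninges. A cell without a Ccr7 UMI may still express the gene, since the medians were 2283 to 4950 UMIs per cell.

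Actn1 was lower in the aged library in all 8 splits by tissue, gate and Ccr7, each past the rule of size and with intervals apart. The share of all genes past the rule in these smaller splits is not given here, so this count has no background beside it. Without Ccr7, young CD4 T cells of the meninges and young CD8 T cells of the choroid plexus had 20 Actn1 UMIs each, exactly the minimum of the rule. With Ccr7, CD4 T cells had 179 CPM (144 to 220.4) in young meninges and 58.1 CPM (21.3 to 126) in aged meninges. The choroid plexus had 183 CPM (139 to 236) when young and 42.5 CPM (11.6 to 109) when aged. Without Ccr7, the young and aged CD4 levels were 52.0 and 7.70 CPM in the meninges and 145 and 7.96 CPM in the choroid plexus. The log2 ratios of aged over young were -1.46 to -1.95 with Ccr7 and -1.75 to -3.11 without it. The aged groups held 3 to 17 Actn1 UMIs each, so the size of the ratio is uncertain. In 8 of 8 groups of library and gate the level was lower in cells without Ccr7 than with it, with log2 ratios of -1.94 to -0.31. The intervals of the classes were not apart in all of these groups. They were apart in CD4 T cells of both meningeal libraries and in CD8 T cells of the young choroid plexus. They overlapped in CD4 T cells of both choroid plexus libraries and in CD8 T cells of the young meninges.

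Vim was higher in the aged library in all 8 splits. With Ccr7, CD4 T cells had 486 CPM (427 to 551) in young meninges and 909.8 CPM (735 to 1113) in aged meninges, and 419 CPM (350.4 to 496) when young against 1106 CPM (903 to 1339.6) when aged in the choroid plexus. Without Ccr7, the young and aged CD8 levels were 683 and 937 CPM in the meninges and 491 and 1091 CPM in the choroid plexus. The log2 ratios were 0.45 to 0.89 in the meninges and 0.93 to 1.38 in the choroid plexus.

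Actg1 and Actb behaved differently inside the classes. Both were higher in cells without Ccr7 than with it in all 8 groups, by log2 0.36 to 0.93 for Actg1 and 0.29 to 1.08 for Actb. In the meninges, Actg1 of cells without Ccr7 had 3639 CPM in CD4 T cells of the young and 3242 CPM in those of the aged library, and 3024 and 2716 CPM in CD8 T cells, which is lower in the aged library with intervals apart, opposite in sign to the ratio over all cells of the gate. With Ccr7, meningeal Actg1 was higher in the aged library, as over all cells. CD4 T cells with Ccr7 had 1905 CPM (1786 to 2030) when young and 2129 CPM (1857 to 2430) when aged, with intervals that overlapped. CD8 T cells with Ccr7 had 1726 CPM (1629 to 1826) and 2113 CPM (1859 to 2392), with intervals apart. In the choroid plexus, cells without Ccr7 had 2028 and 2692 CPM in CD4 and 1867 and 2413 CPM in CD8 T cells, higher in the aged library as over all cells. Actb of meningeal CD4 T cells was lower in the aged library with Ccr7 (6333 and 4907 CPM) and without it (10577 and 7719.9 CPM). Meningeal CD8 T cells were also lower in the aged library in both classes, at 4801 CPM (4639 to 4967) and 3262 CPM (2945 to 3604) with Ccr7 and at 7241 CPM (6968 to 7521) and 6913 CPM (6730.3 to 7099) without it, where the intervals overlapped. This sign is opposite to that of the ratio of 0.19 over all cells of the CD8 gate. Choroid plexus CD4 T cells with Ccr7 had Actb at 5243 CPM (4994 to 5501) when young and 5145 CPM (4697 to 5625) when aged. Without Ccr7 they had 6469 CPM (6102 to 6853) when young and 6982 CPM (6777 to 7192) when aged. The intervals overlapped in both classes.

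**Figure D4:**
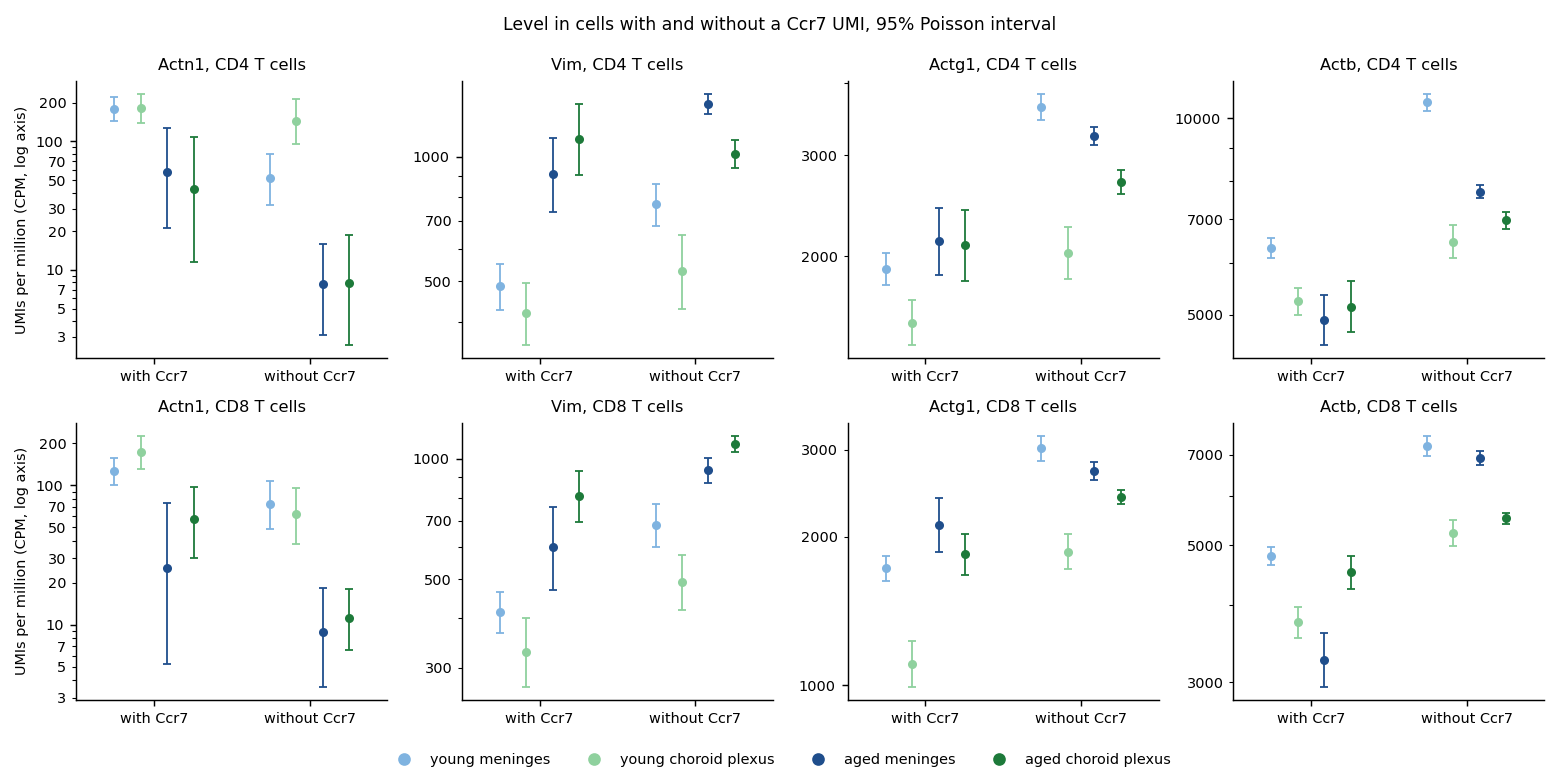
CPM (log axis, a different range in each panel) of Actn1, Vim, Actg1 and Actb in CD4 and CD8 T cells with and without a Ccr7 UMI, in the 4 libraries, with 95% exact Poisson intervals. Aged points lie below young points of the same tissue for Actn1 and above them for Vim in each class, while for Actg1 without Ccr7 the aged meninges lie below the young meninges.

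Over single cells thinned to 1000 UMIs, the members differed in spread. Actb had the highest Fano factor (variance over mean, which grows with the level), at 2.43 to 4.05 over the 12 groups and a median of 3.08, followed by Tmsb4x with a median of 2.66, Tmsb10 with 2.25 and Actg1 with 2.001. Cfl1, Coro1a and Lsp1 had medians of 1.09 to 1.22, close to the value of 1 that counting alone gives. In CD4 T cells of the meninges the median cell had 0 Vim UMIs when young and 1 when aged, with means of 0.423 and 1.28. The median was 0 in all 6 young and 1 in all 6 aged groups. Thinned Actn1 means were 0.146 to 0.21 UMIs per cell in young groups, and in aged groups too few UMIs were left to compare.

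Correlations of thinned counts over cells of 1 group were weak to moderate. They are descriptions, and cells of a group share their library. The strongest of the 45 pairs were Actb with Actg1 (median Pearson r over the 12 groups 0.37, range 0.27 to 0.49) and Actb with Pfn1 (0.37, 0.21 to 0.47). Actb with Tmsb4x and Actb with Cfl1 both had a median of 0.29. Tmsb10, the most abundant member, had medians of at most 0.08 with every other member. Correlations of Actn1 are not given, since the aged groups held too few of its UMIs.

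By a rule applied to members that spanned at least 1 in log2 level over the 12 groups, the genes with the most similar profiles among 1088 genes were found for Actn1, Vim and Actg1. For Actn1 they were Lef1 (r = 0.99), Foxp1 (0.99) and Satb1 (0.98), all encoding transcription factors of naïve T cells or thymocytes. For Vim they were S100a10 (0.97), Clic1 (0.97) and Ech1 (0.96). For Actg1 they were Aldoa, a glycolytic enzyme (0.95), Traf1, a signalling adaptor (0.95), and Gnb2 (0.94). Actn1 and Vim had r = -0.94 with each other over the 12 groups, which share 4 libraries. Levels of both genes separated all young from all aged groups, so this r largely restates the age difference given above. The similar genes were picked for the highest r among 1088, so their values are descriptions and no test.

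The wider actin machinery was described with 97 other genes in 7 lists. Of the genes with at least 20 UMIs in the higher group, 2 of 83 (CD4), 3 of 83 (CD8) and 3 of 91 (neither) were higher by the rule in aged meninges and none was lower, and 4 of 80, 3 of 89 and 3 of 83 were higher in aged choroid plexus, where 1 CD4 gene was lower. These shares are below the 4.23%, 3.2%, 3.44%, 7.27%, 2.46% and 4.62% of all genes or near them. Median log2 ratios over the lists were -0.01 to 0.01 in the meninges and 0.07 to 0.13 in the choroid plexus.

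Ahnak, a giant scaffold protein that links the membrane to actin, was higher in the aged library in all 6 comparisons. CD4 T cells of the meninges had 122 CPM when young and 358 CPM when aged, and those of the choroid plexus had 105 and 378 CPM. CD8 T cells had 105 and 309 CPM in the meninges and 172 and 364 CPM in the choroid plexus. The log2 ratios were 1.04 to 1.76.

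Capg, which caps the growing ends of filaments, passed the rule in CD4 and neither cells of both tissues. It was at 108 and 314 CPM in CD4 T cells of the young and aged meninges and 80.5 and 302 CPM in those of the choroid plexus. In neither cells it was at 65.1 and 311 CPM in the meninges and 37.2 and 302 CPM in the choroid plexus, log2 ratios of 2.09 and 2.72. CD8 T cells had lower levels and passed the rule in the choroid plexus, with 40.7 and 61.9 CPM in the meninges and 18.9 and 65.1 CPM in the choroid plexus. Myo1f, a class I myosin of leukocytes, passed in neither cells of both tissues and in CD4 T cells of the choroid plexus (16.1 and 58.2 CPM). In neither cells it was at 13.9 and 46.2 CPM in the meninges and 13.6 and 56.1 CPM in the choroid plexus.

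None of the 17 genes of the Arp2/3 complex and its activators passed the rule in any age comparison. Of all genes, 2.46 to 7.27% were higher and 0.872 to 1.92% lower, so for 17 genes this is near the background. The most abundant gene of the list, Arpc1b, a subunit of the complex, ran from 607 to 802 CPM over the 12 groups. Among formins and Ena/VASP proteins Vasp, which speeds filament growth, was the most abundant, at 139.9 to 199 CPM. In the same list the formin Fmnl3 passed in meningeal CD8 T cells (4.73 and 29.8 CPM) and Evl, an Ena/VASP protein, was lower in aged CD4 T cells of the choroid plexus (137 and 62.3 CPM). Evl was lower in the aged library in the other 5 comparisons too, short of the rule.

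The most abundant crosslinking gene was Cnn2 (calponin 2), at 701 to 876 CPM. The list's members past the rule, Plek in meningeal CD8 T cells and Swap70 in choroid plexus CD8 T cells, had 10 and 36 and 0 and 23 UMIs in the young and aged libraries. The myosin light chain Myl6 ran from 866 to 1326 CPM, the cofilin relative Gmfg from 335 to 473 CPM and the membrane linker Msn (moesin) from 295 to 534 CPM. Msn was at log2 -0.47 to -0.19 of aged over young in the 6 comparisons, short of the rule. Coro2a passed only in CD4 T cells of the choroid plexus, from 6 young and 35 aged UMIs.

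**Figure D5:**
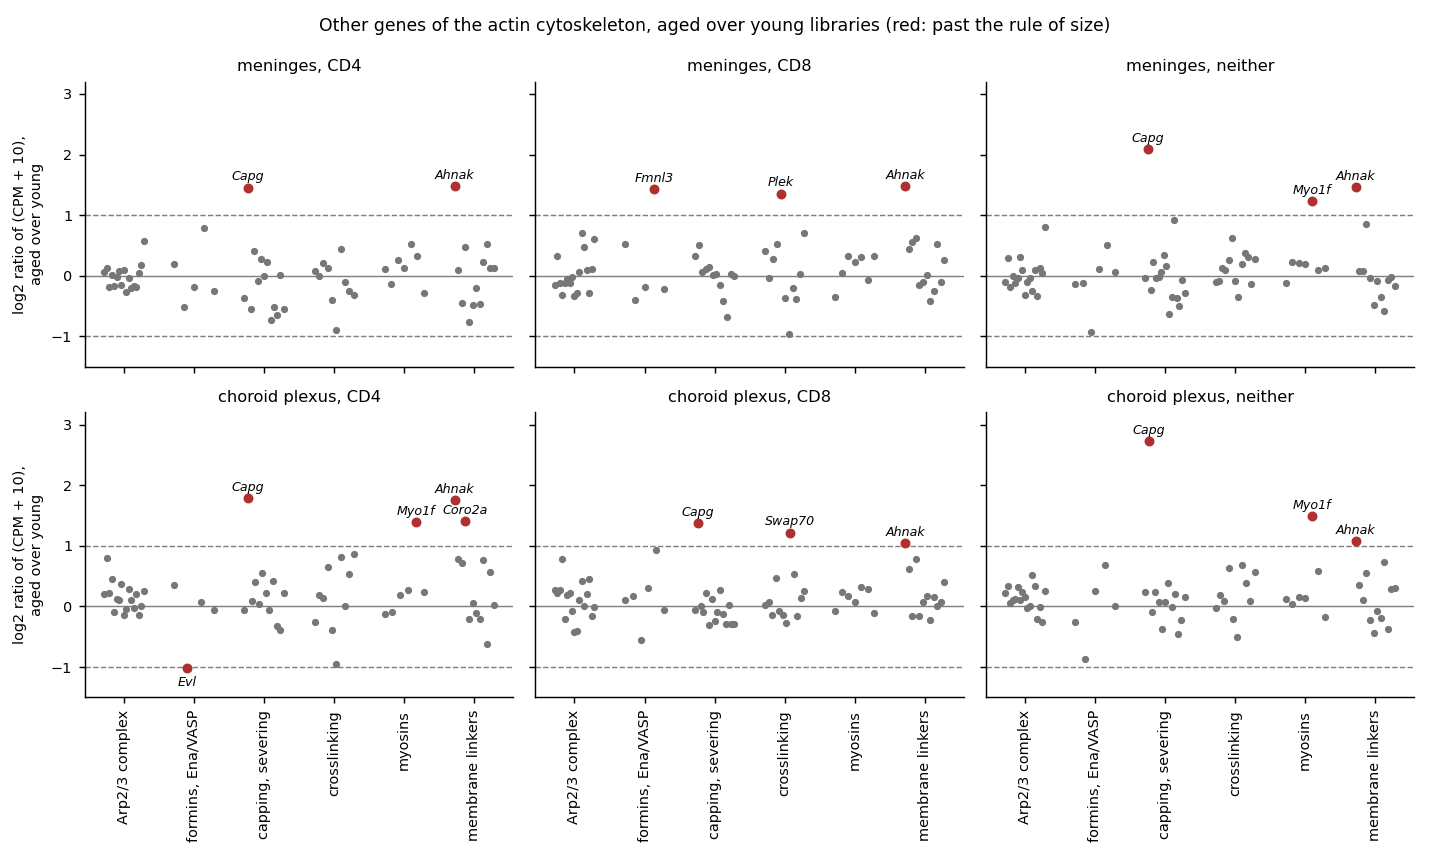
Log2 ratio of (CPM + 10), aged over young, of the other actin cytoskeleton genes with at least 20 UMIs in the higher group, by list (6 of the 7), tissue and gate. Red, named points pass the rule of size and dashed lines mark 1 and -1. Capg and Ahnak recur across panels, and the Arp2/3 list has no red point, which for its 17 genes is near the share of all genes.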

How the data were processed

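The processed files held raw counts: whole-number UMI counts per gene and cell barcode, which the authors made with the Cell Ranger pipeline of 10x Genomics from 5′ libraries and deposited without normalization. Cell Ranger is version 3.1.0 per the file headers and 5.1.0 in the submitters' processing notes, which also name STAR and mm10. The strand setting of the counting is not given in the sources used here. Neighbouring genes that overlap a member could therefore share its reads, which are Gm47765, Gm47766 and Gm47767 for Actn1, Snx32 for Cfl1, Bola2 for Coro1a and Prr33 for Lsp1, and Gm23419 and Mir6935 for Actg1.

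Cells with 200 to 7000 genes and at most 5% mitochondrial UMIs were kept, doublets marked by Scrublet (scanpy 1.11.5, Python 3.11.15) in each library were removed (0 to 22 cells), and T cells were those with a UMI of Cd3d, Cd3e or Cd3g, leaving 605 to 1408 per library. Scrublet marked 0 doublets of the aged meninges. The libraries' 718 to 1695 barcodes were not independent replicates, and each condition was 1 library, so no test was run. UMIs were summed per library and gate, scaled to CPM and compared as the log2 ratio of CPM + 10, which understates the change of low genes. Exact Poisson intervals (95%) were given for levels and Clopper-Pearson intervals for shares, both for counting error only. Intervals that do not overlap are said to be apart. Spread and correlation over cells used cells thinned to 1000 UMIs, with shallower cells left out. The rule of size was run on simulated counts in which 200 genes were set to differ by 1.5 in log2. This is above the limit of 1. At 100 CPM or more it called from 34 of 34 to 75 of 77 of these genes in each comparison, and 142 to 174 of all 200. Variation between mice is unknown here, so how the rule performs in its presence was not tested.

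Coordinates are those of GENCODE vM21 (GRCm38) and start-site windows those of RefSeq (GRCm38.p6). The members, the 97 other actin genes in 7 lists and the marker lists were chosen with earlier results of these data known. One of the 7 lists enters the summed counts but is not reported on its own here. Text names all members, the most abundant gene of each other list, list genes past the rule in both tissues of a gate, and for each member with a log2 span of at least 1 the 3 genes with the highest Pearson correlation of log2 levels over 12 groups among genes with a mean of at least 100 CPM, leaving out receptor, immunoglobulin, mitochondrial and ribosomal protein genes. Other genes past the rule, Evl, Fmnl3, Plek, Swap70 and Coro2a, were named after their values were seen. The alternatives covered the pseudocount, scaling, thinning, limits on cells, doublets, marker-bearing cells, the gates and the rule itself. The one without gamma-delta or natural killer markers, and the scalings of the tissue and CD8 over CD4 ratios, were added after seeing the data.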

Additional observations from a re-analysis of the deposited data

Results flagged for a closer look

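Actb had opposite signs of the age ratio in gates of the meninges. Its log2 ratio of aged over young was -0.14 in meningeal CD4 T cells and 0.19 in meningeal CD8 T cells, a difference of -0.32. Young and aged intervals were apart in each, but they cover counting error only. The spread of Actb between cells was above that of counting alone, with Fano factors of 2.43 to 4.05. Intervals that allow for it would be wider and were not calculated. Inside classes of cells by Ccr7 the meningeal CD8 level was lower in the aged library too, as it was for CD4 T cells, with 4801 CPM when young against 3262 CPM when aged in cells with Ccr7 and at 7241 and 6913 CPM without it, the latter with intervals that overlapped. The same ratio was 0.25 in CD4 T cells of the choroid plexus, a difference of -0.38 from those of the meninges. Inside the Ccr7 classes of these choroid plexus cells, the young and aged intervals overlapped. With 1 library per condition neither difference was tested.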

How the results depend on the processing

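No paired analysis was possible because each condition was 1 library and the libraries carry no replicate numbers. The signs of the age ratios of Actn1, Vim, Tmsb4x and Tmsb10 were kept under all 11 settings in 6 of 6 comparisons, and that of Actg1 in 5 of 6. No ratio that passed the rule of size changed its sign. The cause of the changes that follow was not tested. For the members, higher counts were 0 in meningeal CD4 T cells when scaled without ribosomal protein genes and with gates from 2 UMIs, and 2 in CD4 T cells of the choroid plexus with gates from 2 UMIs (Vim, and Lsp1 with a log2 ratio of 1.16 in 33 young and 62 aged cells), where the lower count was 0 (Actn1, at -2.52, was left with under 20 UMIs). At a limit of log2 0.58 the members' higher counts were 1 in meningeal CD8 T cells and 2 in all 3 gates of the choroid plexus. For the other actin genes with a pseudocount of 1 CPM, 4 (CD4) and 6 (neither) were higher and 2, 1 and 1 (CD4, CD8, neither) lower in the meninges, and 5 (CD8) and 5 (neither) higher and 2 (CD4) lower in the choroid plexus. Lower counts scaled without ribosomal protein genes were 1 in each meningeal gate, and 2 (CD4) and 1 (neither) in the choroid plexus. Median centring gave 1 lower in meningeal CD8 and 2 in choroid plexus CD4 T cells. Thinned cells gave 3 (CD4) and 1 (CD8) lower in the meninges and 2 (CD4) in the choroid plexus. Means of per-cell CPM gave 1 lower in meningeal CD4 T cells, 5 higher in meningeal neither cells and 1 lower in choroid plexus neither cells. Without limits on cells, 1 was lower in meningeal CD8 and 0 in choroid plexus CD4 T cells, which was also 0 with gates from 2 UMIs. Without cells bearing markers of other types, 2 (CD4) and 1 (neither) were lower in the meninges and 2 (CD4) in the choroid plexus. At log2 0.58, 4, 7 and 8 were higher and 6, 2 and 4 lower in the meninges (CD4, CD8, neither), and 12, 7 and 8 higher and 4 (CD4) and 1 (neither) lower in the choroid plexus. With no minimum of UMIs, 1 was lower in choroid plexus neither cells. Of the members' 660 log2 ratios under alternatives, 524 stayed within the counting interval of the reported ratio. Scaling without ribosomal protein genes moved the median log2 ratio of all genes with 20 or more UMIs in sum from between 0.04 and 0.11 to between -0.05 and 0.02. Over all genes, 172 to 333 were higher and 61 to 110 lower over the 6 comparisons, against 330 to 545 and 108 to 245 with a pseudocount of 1 CPM, 619 to 840 and 246 to 398 at log2 0.58, 161 to 283 and 34 to 104 in thinned cells, 115 to 258 and 27 to 105 with gates from 2 UMIs, 180 to 494 and 98 to 166 with no minimum, and 180 to 319 and 86 to 192 scaled without ribosomal protein genes. The higher share of calls was 79.1% in choroid plexus CD4 T cells (68.8% after median centring), 73.8% in CD8 (61.6% after centring, 88.1% thinned) and 63.7% in meningeal CD8 T cells (48.4% scaled without ribosomal protein genes). Depth limits Actn1 most, with 9 to 30 UMIs in each aged group.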

Other observations

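T cells in which Cd4 and a Cd8 gene were both counted, which entered no gate, numbered 18 and 16 in the young meninges and choroid plexus and 30 and 33 in the aged ones. Actn1 was at 204 CPM (111 to 342) and 193 CPM (114 to 305) in the young libraries and at 14.0 CPM (1.69 to 50.5) and 20.2 CPM (5.51 to 51.8) in the aged ones, from 2 and 4 UMIs in the latter. Vim was at 277 and 569 CPM in the young meninges and choroid plexus and at 1308 and 1086 CPM in the aged ones. Such barcodes can hold a pair of cells, which was not tested.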
